A study of Mus musculus with 9 samples.

Results

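The messenger RNA levels of 10 genes that cut, carry and load peptides for major histocompatibility complex class I were read in every library of the deposited table. They are Psmb8, Psmb9 and Psmb10 (catalytic subunits of the immunoproteasome), Psme1 and Psme2 (the PA28 activator), Tap1 and Tap2 (the peptide transporter), Tapbp and Tapbpl (tapasin and its relative TAPBPR) and Erap1 (a trimming peptidase). They were chosen by symbol, with earlier results of these data known. All 10 were found among the 21959 genes of the table, and all 10 were among the 11568 that passed a filter on low counts and were tested.

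The RNA came from DC2.4, an immortalised mouse dendritic cell line, so every library is of the same line. The 9 libraries fall into the groups OMVSSDC, ZJDC and PBSDC, with 3 in each. Engineered extracellular vesicles are the treatment named in the study's own description, but the labels do not state what OMVSS and ZJ are, which group received those vesicles, the dose or the time. PBS commonly stands for phosphate-buffered saline, and PBSDC was taken as the reference on that reading. Separate cultures are not stated for the libraries within a group, so p-values measure only the spread between these libraries, which may be technical.

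Peptides for class I molecules come mostly from proteins cut by the proteasome. In cells that see interferon, the constitutive catalytic subunits Psmb5, Psmb6 and Psmb7 are replaced in newly built particles by Psmb8, Psmb9 and Psmb10, which favour cuts that leave ends fitting the class I groove. PA28 is a ring of Psme1 and Psme2 that opens the particle, and Tap1 and Tap2 form a pump that moves the products into the endoplasmic reticulum. There Erap1 trims them, tapasin holds the class I molecule at the pump while a peptide is fitted, and TAPBPR exchanges peptides away from it. Nlrc5 and Irf1 encode known activators of these genes, and dendritic cells use the pathway to show antigen to CD8 T cells.

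Of these genes 4 are direct neighbours. In the coordinates of the table, whose genome build the sources used here do not give, Psmb9 (chromosome 17, 34400961 to 34406738, reverse strand), Tap1 (34406527 to 34416199, forward), Psmb8 (34416695 to 34420428, forward) and Tap2 (34422501 to 34435295, forward) fill 34335 bases in which the table lists no other gene. Psmb9 and Tap1 overlap there by 212 bases on opposite strands. Tapbp (34134873 to 34148266, forward) is on the same chromosome. Psme1 (chromosome 14, 55815580 to 55818986, forward) and Psme2 (55824898 to 55828570, reverse) lie within 12991 bases with Emc9 between them. Psmb10 (106662367 to 106665076, reverse) is on chromosome 8, Tapbpl (125200896 to 125208823, reverse) on chromosome 6 and Erap1 (74787687 to 74841320, forward) on chromosome 13.

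In RefSeq's annotation of GRCm38.p6, another set of coordinates, Psmb9 and Tap1 start 225 bases apart and run in opposite directions, so the stretch between the starts is upstream of both. It is printed because both genes share it and both were higher in OMVSSDC than in PBSDC. The forward strand of chr17:34187331-34187555 reads 5′ to 3′ as follows, with a GC box (GGGCGG, here in reverse as CCGCCC) in capitals, the start of Psmb9 just before its left end and the start of Tap1 just after its right end.
Psmb9 to Tap1: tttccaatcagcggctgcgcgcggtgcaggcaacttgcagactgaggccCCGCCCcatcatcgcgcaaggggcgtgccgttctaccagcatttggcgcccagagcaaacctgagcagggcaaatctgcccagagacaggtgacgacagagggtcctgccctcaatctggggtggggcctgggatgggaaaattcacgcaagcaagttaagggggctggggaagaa

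The 250 bases before the RefSeq start of Psmb8 (GRCm38.p6, chr17:34197945-34198194, forward) are shown because they hold the sole gamma interferon activation site core (TTCNNNGAA) found among these genes, in capitals.
Psmb8: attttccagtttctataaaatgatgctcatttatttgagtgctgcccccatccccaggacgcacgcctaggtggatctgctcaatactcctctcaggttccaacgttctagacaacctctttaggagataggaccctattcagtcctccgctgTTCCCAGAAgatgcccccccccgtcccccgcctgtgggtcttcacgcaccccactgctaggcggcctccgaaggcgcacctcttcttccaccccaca

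Windows from 250 bases before to 50 after a RefSeq start were at hand for 8 of the 10 genes, all but Tap2 and Tapbpl. Both strands were searched in each window. The core of the interferon-stimulated response element (GAAA, any 2 bases and GAAA again; on the other strand TTTC, any 2 bases and TTTC) was found in 2 of the 8, against 3.99% of 27025 genes with such a window. The genes are Erap1 and Psme1, and the 30 bases around each match are shown because these are the same pair whose levels differed least between OMVSSDC and PBSDC. They are chr13:74639840-74639869 and chr14:55578493-55578522 of GRCm38.p6, both forward, with the match in capitals. The Erap1 match spans the start, and the Psme1 match lies after the start.
Erap1: caccttcacTTTCACTTTCggtcccgggcg
Psme1: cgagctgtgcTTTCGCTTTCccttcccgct
The gamma interferon activation site core was in 1 of the 8 genes' windows, against 9.55% of all these genes. The NF-kB consensus was in 0 of 8, against 9.55%, and the GC box in 6 of 8, against 38.2%. Psmb9 and Tap1 are both counted there for the same box, the one printed between their starts. Apart from that shared box, no pair of these matches overlapped in a printed stretch. A match is a match of letters, and no binding was measured. Any link between the matches and the levels was not tested.

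Library totals lay between 12784931 and 18388959 counts. Levels are in CPM, read counts scaled by TMM to a common library total, and a count of 0 allows up to 3 counts, or 0.163 to 0.235 CPM, for counting error only. The libraries did not all group by label. On principal component 1 (72.8% of the variance) PBSDC lay apart, and on component 2 (14.6%) OMVSSDC replicate 3 was separated from replicates 1 and 2 of its group. There OMVSSDC replicate 3 stood at 21.1, inside the ZJDC range of 7.98 to 21.4. The chi-square per degree of freedom over genes was 1.88 between OMVSSDC replicates 1 and 2, against 61.5 and 64.7 between these and replicate 3. It was 7.63 to 10.7 between replicate 3 and the ZJDC libraries. Within the other groups it was 2.54 to 8.95 for ZJDC and 2.80 to 3.92 for PBSDC. Short genes (up to 2881 bases) stood above long ones by 0.26 and 0.27 in median log2 level relative to PBSDC in OMVSSDC replicates 1 and 2, against -0.12 in replicate 3 and -0.13 to -0.04 in ZJDC. Of the cell type markers, 9 myeloid genes summed to 3645 to 4289 CPM in OMVSSDC, 3997 to 4117 in ZJDC and 4615 to 4733 in PBSDC. The 6 markers of conventional dendritic cells summed to only 7.37 to 10.1, 6.93 to 7.68 and 4.23 to 5.19 CPM. The 7 T and NK cell markers summed to at most 0.288 CPM in an OMVSSDC library, 0.282 in a ZJDC library and 0.343 in a PBSDC library, and 5 of them, Cd3e and Cd8a included, had 0 counts in every library. The 3 B cell and 5 epithelial markers summed to at most 1.15 CPM in any library. The 3 markers of thymic cortical epithelium summed to 12.0 to 18.5 CPM in OMVSSDC, 9.15 to 10.5 in ZJDC and 6.38 to 8.84 in PBSDC, without overlap. Nearly all of that sum was Prss16, while Psmb11 and Foxn1 had 3 counts or fewer in every library. The 5 fibroblast and endothelial markers, which also moved with the groups, summed to 10.2 to 23.3 CPM in OMVSSDC, 14.2 to 17.2 in ZJDC and 25.9 to 28.8 in PBSDC, and the 6 granulocyte and erythroid markers to 0.223 to 8.80, 0.0537 to 0.507 and 0.295 to 1.09. Their part in the results was not tested. Because OMVSSDC replicate 3 stands apart, the values of the 10 genes in OMVSSDC against PBSDC are given below with all 9 libraries, without that replicate, and with it as the sole OMVSSDC library beside the ZJDC and PBSDC libraries (7 libraries). In the fit to 7 libraries that lone library is assumed to vary like those of the other groups, and its values describe 1 library.

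Comparing OMVSSDC with PBSDC, 8 of the 10 genes rose and 0 fell, with Psme1 and Erap1 not past the threshold (edgeR's quasi-likelihood test, adjusted p under 0.05 by Benjamini-Hochberg over all tested genes). Of all tested genes 63.6% were called in this comparison, 33.4% higher and 30.2% lower. The groups did not overlap for the same 8 genes, all higher, against 33.9% of all tested genes upward and 31.8% downward. The median log2 fold change of the 10 genes was 0.98, against 0.05 over all tested genes. Without OMVSSDC replicate 3 it was 1.21, against 0.04, and 9 of the 10 rose, beside 4584 of 11761 tested genes. With that replicate alone it was 0.46, against 0.01. The 8 genes that rose were all highest in OMVSSDC replicates 1 and 2. Tap1, Tap2, Tapbp, Tapbpl, Psmb9 and Psme2 were above all PBSDC libraries in every OMVSSDC and ZJDC library. In OMVSSDC replicate 3, Psmb8, Psmb9 and Psmb10 lay within the ZJDC range, and Psme2, Tap1, Tap2, Tapbp and Tapbpl lay above it. The 10 genes together took 0.116% to 0.162% of counts in OMVSSDC, 0.101% to 0.110% in ZJDC and 0.0673% to 0.0722% in PBSDC. In such bulk libraries, fewer cells that express a gene and less RNA per cell cannot be told apart.

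**Figure D1:**
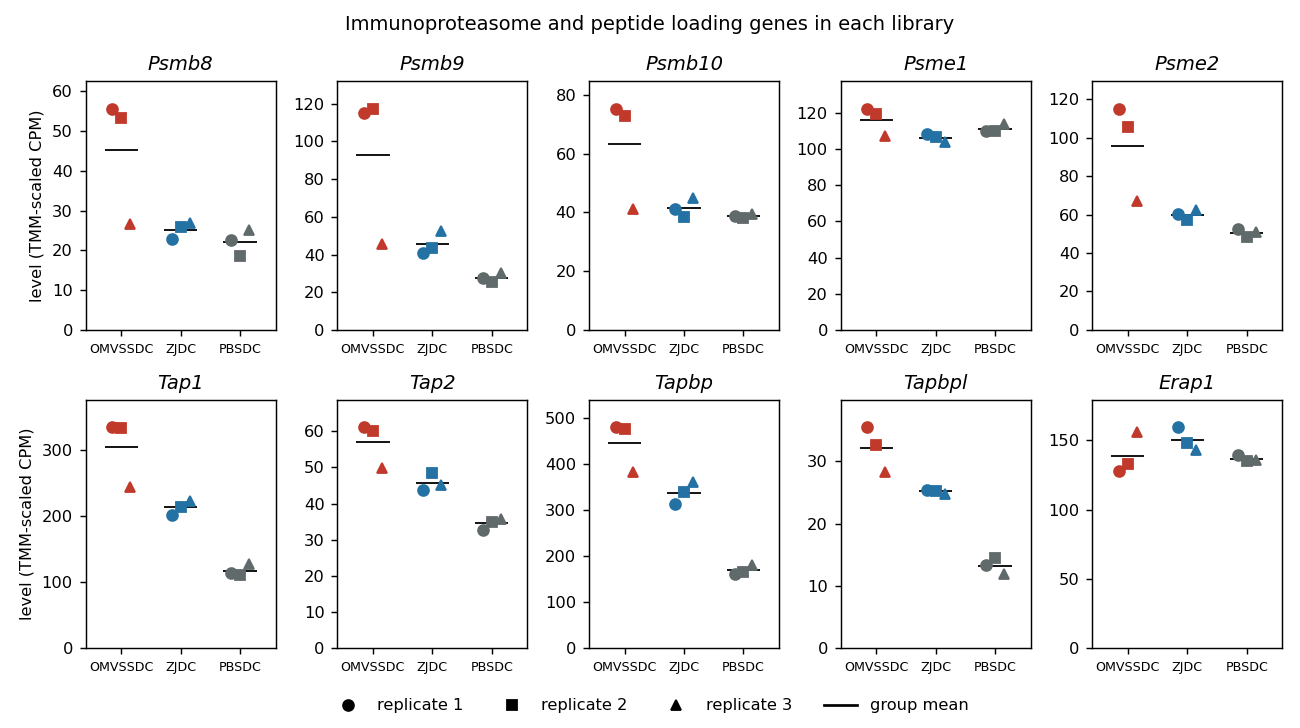
Level of each of the 10 genes (vertical axis, TMM-scaled CPM, from 0) in the OMVSSDC, ZJDC and PBSDC libraries. Each point is a library, its shape gives the replicate number, and the line is the group mean. Tap1, Tap2, Tapbp, Tapbpl, Psmb9 and Psme2 stand above PBSDC in all 6 OMVSSDC and ZJDC libraries. All of these, and Psmb8 and Psmb10, are highest in OMVSSDC replicates 1 and 2. In OMVSSDC replicate 3, Psmb8, Psmb9 and Psmb10 lie within the ZJDC range.

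Tapbp encodes tapasin, which bridges the class I molecule and the peptide pump. Its level was 480, 476 and 383 CPM in OMVSSDC replicates 1, 2 and 3, 314, 339 and 361 CPM in ZJDC, and 162, 167 and 182 CPM in PBSDC. No library of OMVSSDC or ZJDC was as low as any of PBSDC, and each OMVSSDC library was above each ZJDC library. Tapbp rose 2.62-fold in OMVSSDC against PBSDC (log2 fold change 1.39, SE 0.0984, edgeR adjusted p = 1.21e-06) and 1.99-fold in ZJDC against PBSDC (0.99, SE 0.0977, adjusted p = 1.80e-05). Within the 7 libraries, where OMVSSDC is replicate 3 alone, the log2 fold change of Tapbp against PBSDC was 1.17. In the table Tapbp shares 3422 bases with Zbtb22 on the same strand, which rose by a log2 fold change of 0.75 in OMVSSDC and was 0.30 higher in ZJDC without passing (edgeR adjusted p = 0.173). The sources used here do not state how reads in shared bases were assigned.

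Tap1, one of the subunits of the peptide pump, had 335, 334 and 244 CPM in OMVSSDC, 202, 215 and 223 CPM in ZJDC, and 114, 112 and 128 CPM in PBSDC. The 3 groups did not overlap, in the order OMVSSDC, ZJDC, PBSDC from high to low. It rose 2.58-fold in OMVSSDC (log2 fold change 1.37, SE 0.120, edgeR adjusted p = 5.28e-06) and 1.81-fold in ZJDC (0.86, SE 0.119, adjusted p = 0.000175). Tap2, the other subunit, had 61.1, 60.2 and 49.8 CPM in OMVSSDC, 43.7, 48.5 and 45.1 CPM in ZJDC, and 32.8, 35.0 and 35.8 CPM in PBSDC. Its groups did not overlap either, and OMVSSDC replicate 3 was again the OMVSSDC library nearest to ZJDC. Tap2 rose 1.65-fold in OMVSSDC (log2 fold change 0.73, SE 0.0924, adjusted p = 7.21e-05) and 1.33-fold in ZJDC (0.41, SE 0.0927, adjusted p = 0.00400).

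Tapbpl encodes TAPBPR, a peptide editor that works on class I molecules away from the pump. It had 35.5, 32.6 and 28.3 CPM in OMVSSDC, 25.5, 25.3 and 24.8 CPM in ZJDC, and 13.4, 14.5 and 11.9 CPM in PBSDC. The lowest ZJDC library was well above the highest PBSDC library, and the ZJDC libraries were nearly level with each other. Tapbpl rose 2.42-fold in OMVSSDC (log2 fold change 1.27, SE 0.109, edgeR adjusted p = 4.62e-06) and 1.90-fold in ZJDC (0.92, SE 0.110, adjusted p = 6.22e-05). All 7928 bases of Tapbpl lie inside Vamp1 on the opposite strand, and Vamp1 rose by log2 fold changes of 1.37 in OMVSSDC and 1.20 in ZJDC. The sources used here do not state whether the counting used strand, and without strand the reads of Tapbpl and Vamp1 cannot be told apart.

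For Tap1, Tap2, Tapbp and Tapbpl, both rises against PBSDC also passed in each of the 19 other settings tried. Within the 7 libraries the log2 fold changes of OMVSSDC against PBSDC were 1.05 for Tap1, 0.53 for Tap2 and 1.08 for Tapbpl. Without OMVSSDC replicate 3 they were 1.51, 0.81 and 1.35, and 1.49 for Tapbp.

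Psmb9 encodes the interferon-inducible subunit beta 1i, which takes the place of Psmb6. It had 115, 117 and 45.7 CPM in OMVSSDC, 40.8, 43.6 and 52.3 CPM in ZJDC, and 27.3, 25.6 and 30.0 CPM in PBSDC. OMVSSDC replicate 3 lay inside the ZJDC range, at less than the level of replicates 1 and 2, and all libraries of both groups were above PBSDC. Psmb9 rose 3.36-fold in OMVSSDC, the largest fold of the 10 genes (log2 fold change 1.75, SE 0.297, edgeR adjusted p = 0.000517). It was 2.07 on the log2 scale without OMVSSDC replicate 3 and 0.72 with that replicate alone. In ZJDC it was 1.65-fold higher, which did not pass (log2 fold change 0.72, SE 0.297, edgeR adjusted p = 0.0619). That spread includes the OMVSSDC libraries: fitted to the ZJDC and PBSDC libraries only, the log2 fold change of Psmb9 was 0.73 with adjusted p = 9.17e-08.

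Psmb8 encodes beta 5i, the chymotrypsin-like subunit, which takes the place of Psmb5. It had 55.7, 53.3 and 26.7 CPM in OMVSSDC, 22.9, 25.8 and 26.9 CPM in ZJDC, and 22.5, 18.5 and 25.3 CPM in PBSDC. ZJDC and PBSDC overlapped, and OMVSSDC replicate 3 lay within ZJDC and just above the highest PBSDC library. Psmb8 rose 2.05-fold in OMVSSDC (log2 fold change 1.04, SE 0.240, edgeR adjusted p = 0.00362), at 1.30 on the log2 scale without replicate 3. With replicate 3 alone the call was lost (0.27, adjusted p = 0.0974). In ZJDC the log2 fold change of Psmb8 was 0.19 (SE 0.244, adjusted p = 0.529).

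Psmb10 encodes beta 2i, the trypsin-like subunit, which takes the place of Psmb7. It had 75.3, 72.9 and 41.3 CPM in OMVSSDC, 41.1, 38.4 and 44.8 CPM in ZJDC, and 38.8, 38.1 and 39.6 CPM in PBSDC. OMVSSDC replicate 3 was again within the ZJDC range, which overlapped PBSDC. Psmb10 rose 1.63-fold in OMVSSDC (log2 fold change 0.70, SE 0.188, edgeR adjusted p = 0.00796), at 0.93 without replicate 3 and 0.40 with the trend over gene length and GC content removed. With replicate 3 alone it did not pass (0.08, adjusted p = 0.500). In ZJDC its log2 fold change was 0.10 (SE 0.189, adjusted p = 0.690).

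Psme2 encodes PA28 beta. It had 115, 106 and 67.3 CPM in OMVSSDC, 60.3, 57.2 and 62.6 CPM in ZJDC, and 52.7, 48.3 and 51.0 CPM in PBSDC, so the 3 groups did not overlap. OMVSSDC replicate 3 was again the nearest of its group to ZJDC. Psme2 rose 1.89-fold in OMVSSDC (log2 fold change 0.92, SE 0.163, edgeR adjusted p = 0.000672), with 1.12 on the log2 scale without replicate 3 and 0.40 with that replicate alone, both past the threshold. In ZJDC it was 1.19-fold higher without passing (log2 fold change 0.25, SE 0.164, adjusted p = 0.228), and it passed at the same 0.25 in a fit to the ZJDC and PBSDC libraries only (adjusted p = 0.000887). A near copy of the gene, Psme2b, was counted separately, at 712, 891 and 508 reads in OMVSSDC, 530, 419 and 527 in ZJDC and 522, 379 and 441 in PBSDC. The assignment of reads that fit both is not stated. With both summed, the log2 fold changes were 0.81 (edgeR adjusted p = 0.000961) in OMVSSDC and 0.17 (adjusted p = 0.366) in ZJDC.

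Psme1 encodes PA28 alpha, the partner of Psme2 in the same ring. Its level was 122, 119 and 107 CPM in OMVSSDC, 108, 106 and 104 CPM in ZJDC, and 109.7, 109.8 and 114 CPM in PBSDC. The ZJDC libraries were all below the PBSDC libraries, by a small margin, and OMVSSDC lay on both sides of PBSDC. The log2 fold changes of Psme1 were 0.06 in OMVSSDC (SE 0.0658, edgeR adjusted p = 0.410) and -0.07 in ZJDC (SE 0.0658, adjusted p = 0.407). Its direction in OMVSSDC turned with the setting. It was 0.12 higher without replicate 3 (adjusted p = 0.0367), 0.06 lower with that replicate alone (adjusted p = 0.465), and 0.18 lower with the trend over gene length and GC content removed (adjusted p = 0.0220). Scaled by library size alone it was 0.19 higher (adjusted p = 0.0425), where the median over all genes stood at 0.18.

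Erap1 trims peptides in the endoplasmic reticulum to the length the class I groove takes. It had 128, 133 and 156 CPM in OMVSSDC, 159, 148 and 143 CPM in ZJDC, and 139.2, 135.2 and 135.8 CPM in PBSDC. Here OMVSSDC replicates 1 and 2 were the lowest of all libraries and replicate 3 was within ZJDC, the reverse of the order for the catalytic subunits. The log2 fold changes of Erap1 were 0.02 in OMVSSDC (SE 0.0813, edgeR adjusted p = 0.827) and 0.14 in ZJDC (SE 0.0812, adjusted p = 0.179). With OMVSSDC replicate 3 alone it was 0.18 higher than PBSDC (adjusted p = 0.0239) and without that replicate 0.069 lower (adjusted p = 0.238), and in a fit to ZJDC and PBSDC only the 0.14 in ZJDC passed (adjusted p = 0.0124). Erap1 shares 834 bases with Cast on the opposite strand, which rose by log2 fold changes of 0.62 in OMVSSDC and 0.68 in ZJDC.

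**Figure D2:**
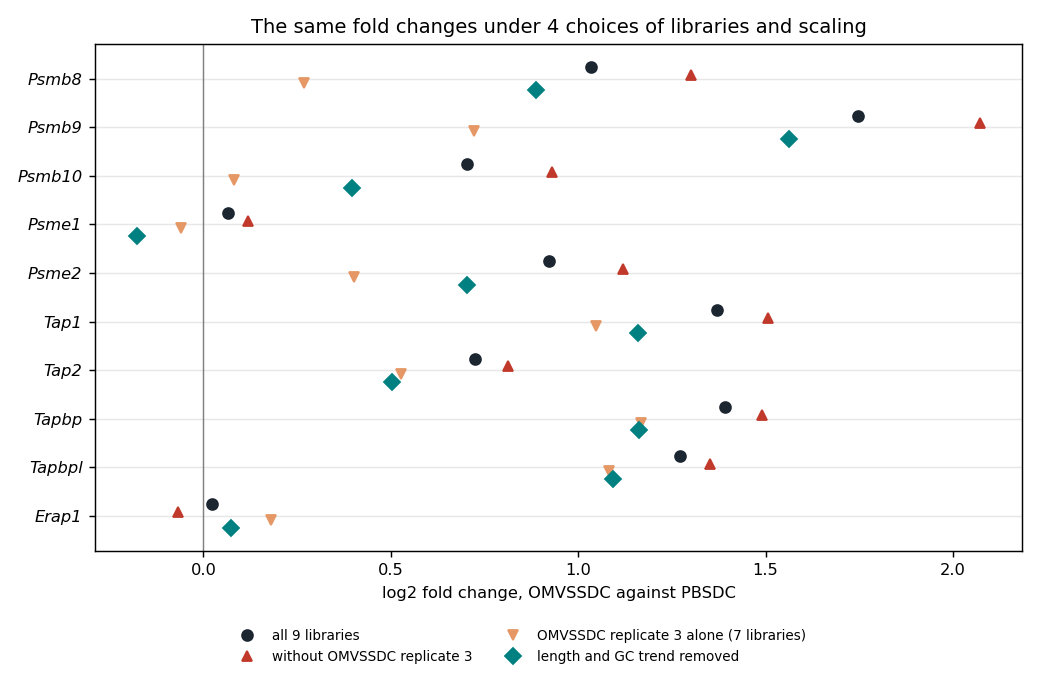
Log2 fold change of each of the 10 genes in OMVSSDC against PBSDC (horizontal axis), with all 9 libraries, without OMVSSDC replicate 3, with that replicate as the sole OMVSSDC library (7 libraries), and with the trend over gene length and GC content removed. Tap1, Tap2, Tapbp, Tapbpl and Psmb9 stay at or above 0.50 in all 4, though Psmb9 runs between 0.72 and 2.07. Psmb10 runs between 0.08 and 0.93 and Psmb8 between 0.27 and 1.30.

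Comparing ZJDC with PBSDC, 4 of the 10 genes rose, Tap1, Tap2, Tapbp and Tapbpl, and 0 fell. Of all tested genes 54.7% were called, 27.6% higher and 27.1% lower. The median of the 10 genes was 0.33, against 0.01 over all tested genes. All ZJDC libraries were above all PBSDC libraries for 7 of the 10 genes, Psmb9, Psme2 and Erap1 beside those 4, and below them for Psme1; over all tested genes such a gap was seen for 36.2% upward and 36.0% downward. In a fit without OMVSSDC replicate 3, 7 of the 10 passed, as did 8242 of the 11761 genes tested there. In a fit to the ZJDC and PBSDC libraries only, 7 of the 10 passed, as did 8009 of 11398. The larger count of the 10 thus went with a larger count over all genes. In neither fit do OMVSSDC replicates 1, 2 and 3 enter the estimate of the spread together. Both comparisons use the same PBSDC libraries.

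Comparing OMVSSDC with ZJDC directly, 0 of the 10 genes passed in edgeR's quasi-likelihood test. Of all tested genes 1.95% were called, 0.856% higher and 1.10% lower. DESeq2 called 8 of the 10, beside 1644 of all 11568 tested genes, and limma-voom called 0 of the 10. The median log2 difference of the 10 genes was 0.46, against 0.01 over all tested genes. OMVSSDC did not overlap ZJDC for 5 of them, Psme2, Tap1, Tap2, Tapbp and Tapbpl, all higher, against 11.7% of all tested genes upward and 12.2% downward. The adjusted p was 0.0562 for Tap1 (log2 difference 0.51, SE 0.117), 0.0562 for Psme2 (0.68, SE 0.162), 0.0566 for Tapbp (0.40, SE 0.0964) and 0.0751 for Psmb9 (1.02, SE 0.287). This comparison rests on which OMVSSDC libraries are used. Without replicate 3, 9 of the 10 were called higher and Erap1 lower (log2 difference -0.21), in a fit in which 6539 of all genes were called. With replicate 3 alone, 0 were called, the median of the 10 was 0.10, and Psmb9 and Psmb10 stood at -0.01 and -0.02.

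**Figure D3:**
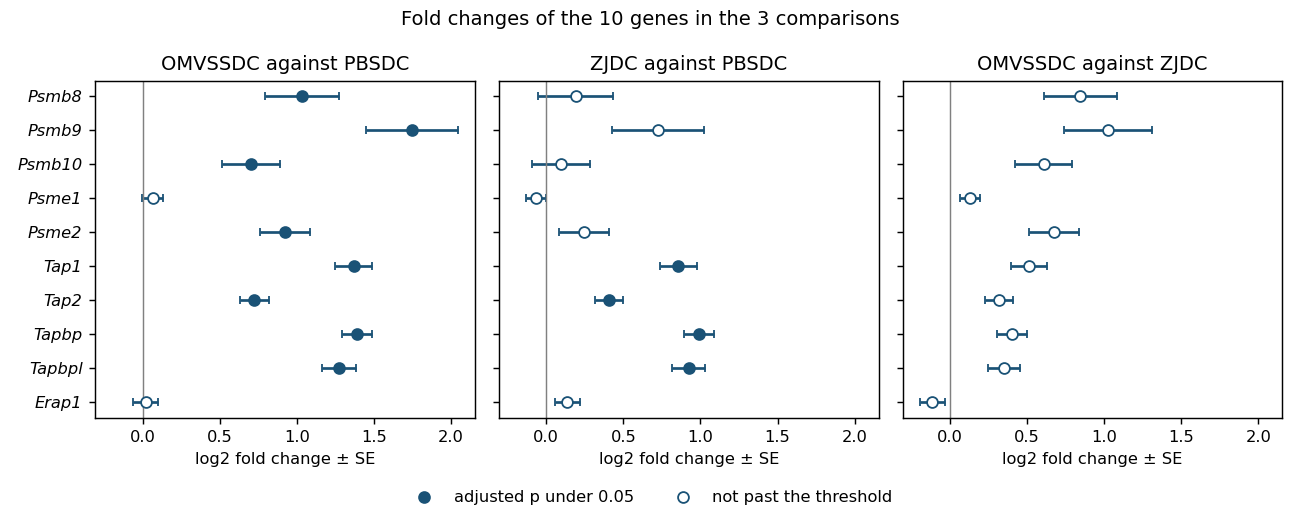
Log2 fold change with its SE (horizontal axis and bars) of the 10 genes in OMVSSDC against PBSDC, ZJDC against PBSDC and OMVSSDC against ZJDC, from the fit to all 9 libraries. Filled points had an adjusted p under 0.05: there are 8 in the first panel, 4 in the second and 0 in the third, where the points other than Erap1 still lie above 0.

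The constitutive counterparts can be set beside the inducible subunits within each library, which takes out scaling but not gene length or GC content. Psmb6 and Psmb5 followed the same split as the inducible subunits. Psmb6 had 242, 225 and 137 CPM in OMVSSDC, 138, 140 and 137 CPM in ZJDC, and 110.1, 113 and 115 CPM in PBSDC, a rise of 0.84 on the log2 scale in OMVSSDC (SE 0.167, edgeR adjusted p = 0.00145). It was 1.05 without OMVSSDC replicate 3 and 0.28 with that replicate alone, both past the threshold. Psmb5 had 21.2, 20.7 and 12.0 CPM in OMVSSDC, 10.8, 11.3 and 13.9 CPM in ZJDC, and 11.32, 11.04 and 11.60 CPM in PBSDC, a rise of 0.67 in OMVSSDC (SE 0.201, adjusted p = 0.0147). The rise of Psmb5 did not pass with OMVSSDC replicate 3 alone (0.08, adjusted p = 0.722) or with the trend over gene length and GC content removed (0.22, adjusted p = 0.124). Psmb7 had 95.7, 95.1 and 72.1 CPM in OMVSSDC, 84.4, 79.1 and 79.9 CPM in ZJDC, and 89.3, 81.4 and 88.9 CPM in PBSDC, with a log2 fold change in OMVSSDC of 0.02 (SE 0.104, adjusted p = 0.887) that turned to -0.013 under RLE scaling. With replicate 3 alone Psmb7 was 0.27 lower (adjusted p = 0.00538).

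The ratio of each inducible subunit to its counterpart, in counts per kilobase of the table's gene length, was then taken in each library. Psmb9 to Psmb6 was 0.243, 0.267 and 0.170 in OMVSSDC, 0.151, 0.159 and 0.195 in ZJDC, and 0.127, 0.116 and 0.133 in PBSDC. Psmb10 to Psmb7 was 1.58, 1.54 and 1.15 in OMVSSDC, 0.976, 0.974 and 1.12 in ZJDC, and 0.871, 0.940 and 0.893 in PBSDC. Psmb8 to Psmb5 was 0.698, 0.686 and 0.593 in OMVSSDC, 0.567, 0.605 and 0.514 in ZJDC, and 0.529, 0.446 and 0.579 in PBSDC. All OMVSSDC libraries were thus above all PBSDC libraries in each ratio, and the ZJDC libraries were above PBSDC for Psmb9 to Psmb6 and for Psmb10 to Psmb7. For Psmb8 to Psmb5 the margin was narrow, with OMVSSDC replicate 3 at 0.593 and the highest PBSDC library at 0.579. The ZJDC library at 0.605 lay above both. As log2 differences from PBSDC the ratios were 0.83, 0.64 and 0.35 higher in OMVSSDC, in the order just given, with p = 0.1 each in a two-sided exact permutation test, the smallest p that 3 against 3 allows. In ZJDC they were 0.41 and 0.18 (p = 0.1 each) and 0.12 (p = 0.5) higher by the same exact test. Adjusted over the 9 ratio tests these p were 0.15 and 0.5, so none could pass. The sizes moved with the setting. With OMVSSDC replicate 3 alone the differences from PBSDC were 0.44 for Psmb9 to Psmb6, 0.35 for Psmb10 to Psmb7 and 0.20 for Psmb8 to Psmb5. With the trend over gene length and GC content removed they were 0.84, 0.29 and 0.63 in OMVSSDC in that order, so that Psmb10 to Psmb7 and Psmb8 to Psmb5 changed places.

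**Figure D4:**
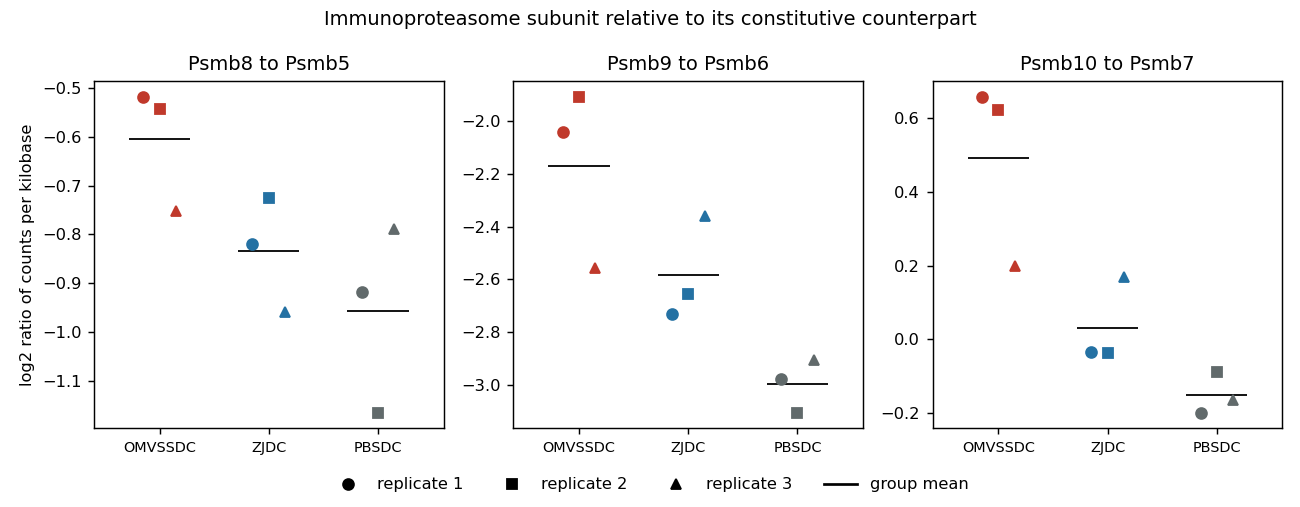
Log2 ratio of counts per kilobase (vertical axis) of Psmb8 to Psmb5, Psmb9 to Psmb6 and Psmb10 to Psmb7 in the OMVSSDC, ZJDC and PBSDC libraries. Points are libraries, shapes give the replicate number and lines are group means. In each panel the OMVSSDC points lie above the PBSDC points, and OMVSSDC replicate 3 is the lowest of its group.

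Per kilobase, the order of the 10 genes by level differed between the groups. Tapbp was the highest in OMVSSDC at 123 ± 15.1 CPM per kilobase (SD, n = 3) and in ZJDC at 93.3 ± 6.48, and in PBSDC it stood at 46.9 ± 2.86, overlapping Psme1 at 50.3 ± 1.06. Tap1 was second in OMVSSDC at 55.6 ± 9.55, overlapping Psme2 at 54.4 ± 14.3, which in turn overlapped Psme1 at 52.6 ± 3.70. In ZJDC Psme1 (48.0 ± 1.04), Tap1 (39.0 ± 1.93), Psme2 (34.0 ± 1.55), Psmb10 (24.3 ± 1.87) and Erap1 (20.6 ± 1.13) followed Tapbp without overlap. In PBSDC Tap1, at 21.5 ± 1.63, came only after Psme2 (28.7 ± 1.27) and overlapped Psmb10 (22.8 ± 0.423). Psmb9 stood at 25.3 ± 11.1 CPM per kilobase in OMVSSDC, 12.4 ± 1.64 in ZJDC and 7.55 ± 0.609 in PBSDC. Tap2, Tapbpl and Psmb8 were among the lowest everywhere, at 15.1 ± 1.65, 13.6 ± 1.54 and 13.4 ± 4.76 in OMVSSDC, where each overlapped the next, at 12.1 ± 0.651, 10.7 ± 0.148 and 7.46 ± 0.605 in ZJDC, and at 9.13 ± 0.416, 5.64 ± 0.550 and 6.54 ± 1.003 in PBSDC, where Psmb9, Psmb8 and Tapbpl overlapped their neighbours.

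Around these genes, the rest of the class I pathway moved in both directions. The counts of each list stand against 33.4% of all tested genes higher and 30.2% lower in OMVSSDC, and 27.6% higher and 27.1% lower in ZJDC. Of the other genes named from the panel and lists, 26 were called in OMVSSDC against PBSDC. Up to 2 per list were named for their small adjusted p in this comparison, so refits of it are no independent support. Without OMVSSDC replicate 3, 26 kept their direction and call, in a fit that called 8813 of 11761 tested genes. With that replicate alone, the log2 fold changes of Psmb5, Psmb6, Irf1, B2m and Psmf1 moved the most relative to their size. The 7 class I molecules measured rose in both comparisons, 7 of 7 each, with medians of 1.68 in OMVSSDC and 1.44 in ZJDC. In ZJDC 6 of the 7 passed under limma-voom or with no filter on low counts. Of the 7, H2-Q7 was low, at a mean of 4.83 CPM in OMVSSDC, 1.89 in ZJDC and 0.37 in PBSDC. H2-K1, a classical heavy chain, had 302, 300.4 and 271 CPM in OMVSSDC, 261, 208 and 269 CPM in ZJDC, and 86.8, 91.8 and 93.5 CPM in PBSDC. B2m, the shared light chain, had 1726, 1787 and 2923 CPM in OMVSSDC, 2586, 2367 and 2294 CPM in ZJDC, and 1323, 1258 and 1240 CPM in PBSDC, with OMVSSDC replicate 3 the highest of all libraries. The rise of B2m in OMVSSDC was 0.75 on the log2 scale, 0.46 without that replicate and 1.19 with it alone. H2-D1 and H2-Q4 rose by log2 fold changes of 2.16 and 1.21 in OMVSSDC and were also among the 3 class I genes called higher in OMVSSDC than in ZJDC (0.67 and 0.34), H2-T23 being the third (1.12). With only the 2 groups fitted, 0 of the 7 were called (edgeR adjusted p = 0.168 for H2-T23 and H2-Q4 and 0.187 for H2-D1). That fit called 0 of all 11430 tested genes. With the trend over gene length and GC content removed H2-Q4 did not pass (edgeR adjusted p = 0.103). With OMVSSDC replicate 3 alone the difference was 0.23 for H2-D1 and 0.46 for H2-T23, both past the threshold. Class I heavy chains resemble each other closely, and reads that fit several of them make these values uncertain.

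Of the 14 constitutive 20S subunits, 3 rose and 5 fell in OMVSSDC and 0 rose and 7 fell in ZJDC, against PBSDC, with medians of -0.10 and -0.35. In all, 8 of the 14 were called in OMVSSDC, against 63.6% of all tested genes, and 7 of the 14 in ZJDC, against 54.7%. Both counts are near the share over all genes. Psmb2, a noncatalytic beta subunit, fell by 0.96 in OMVSSDC and 0.68 in ZJDC on the log2 scale, and Psma6, an alpha subunit, by 0.54 and 0.53. Without replicate 3 the count for OMVSSDC was 7 higher and 5 lower, in a fit that called 8813 of 11761 tested genes. With that replicate alone the median of the 14 was -0.36. In a fit to ZJDC and PBSDC only, the count for ZJDC was 1 higher and 10 lower, and 8009 of 11398 genes were called. The 14 genes took 0.224%, 0.225% and 0.160% of counts in OMVSSDC, 0.166% to 0.175% in ZJDC and 0.200% to 0.204% in PBSDC. Of the 19 subunits of the 19S regulatory particle, which unfolds substrates for the 20S core, 2 rose and 15 fell in OMVSSDC and 3 rose and 14 fell in ZJDC. Psmd1, a scaffold of that particle, fell by 1.09 and 0.76 on the log2 scale and Psmc3, one of its ATPases, by 0.71 and 0.46.

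Genes for other activators, an inhibitor and assembly factors of the core moved in both directions. Psme3, the PA28 gamma activator found in the nucleus, fell to 141 CPM in OMVSSDC and 185 CPM in ZJDC, against 365 CPM in PBSDC (log2 fold changes -1.37 and -0.98, SE 0.0956 and 0.0945, edgeR adjusted p = 1.10e-06 and 1.56e-05). Psme4, the PA200 activator, rose by 0.56 and 0.46. Psmf1, which encodes the proteasome inhibitor PI31, fell by 0.25 and 0.36, and by 0.41 in OMVSSDC with replicate 3 alone. Pomp, the chaperone that helps assemble immunoproteasomes, was 0.10 lower in OMVSSDC without passing (edgeR adjusted p = 0.457) and fell by 0.40 in ZJDC. Psmg3, another assembly chaperone, was 0.57 higher in OMVSSDC and 0.24 lower in ZJDC, past the threshold in neither (adjusted p = 0.0787 and 0.478). Of the 10 genes in this list, 8 could be tested, with 1 higher and 2 lower in OMVSSDC and 1 higher and 3 lower in ZJDC. The count for OMVSSDC was 3 higher and 2 lower without replicate 3 and 1 higher and 5 lower with it alone. The tissue-restricted subunits were not among them: Psma8, of testis, had 0 counts in every library, and Psmb11, of the thymic cortex, had 0 in all OMVSSDC libraries, 1, 0 and 1 in ZJDC and 3, 1 and 0 in PBSDC.

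Downstream of the proteasome, 4 of 7 other peptidases fell in each comparison, while 2 rose in OMVSSDC and 1 in ZJDC. The count higher was 0 in OMVSSDC with only the 2 groups fitted or with no filter, and 0 in ZJDC with no filter or with the trend over gene length and GC content removed. Thop1 and Blmh, cytosolic enzymes that destroy or trim peptides, fell by 1.16 and 0.74 in OMVSSDC and by 1.05 and 0.61 in ZJDC on the log2 scale. Lnpep, a trimming peptidase of endosomes related to Erap1, rose by 0.16 in OMVSSDC (edgeR adjusted p = 0.0300) and was 0.11 higher in ZJDC without passing (adjusted p = 0.150). The call on Lnpep in OMVSSDC held in 8 of 19 other settings, with adjusted p between 0.00160 and 0.154. Of 5 chaperones that fold class I molecules in the endoplasmic reticulum, 4 fell in each comparison. Calr fell to 1044 CPM in OMVSSDC and 1142 CPM in ZJDC, against 2028 CPM in PBSDC. Pdia3, the partner of tapasin in the loading complex, stood at 841, 915 and 1601 CPM in OMVSSDC, ZJDC and PBSDC, and fell in both comparisons. Canx fell by 0.48 and 0.44 and Uggt1 by 0.65 and 0.47 on the log2 scale, and Ganab did not pass (0.27 and 0.01, adjusted p = 0.0694 and 0.935). Abcb9, a lysosomal relative of the TAP genes, rose by 0.50 in OMVSSDC (edgeR adjusted p = 0.0144) and was 0.21 higher in ZJDC without passing (adjusted p = 0.267). The rise of Abcb9 did not pass with OMVSSDC replicate 3 alone (0.34, adjusted p = 0.141) or with the trend over length and GC content removed (0.22, adjusted p = 0.244).

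**Figure D5:**
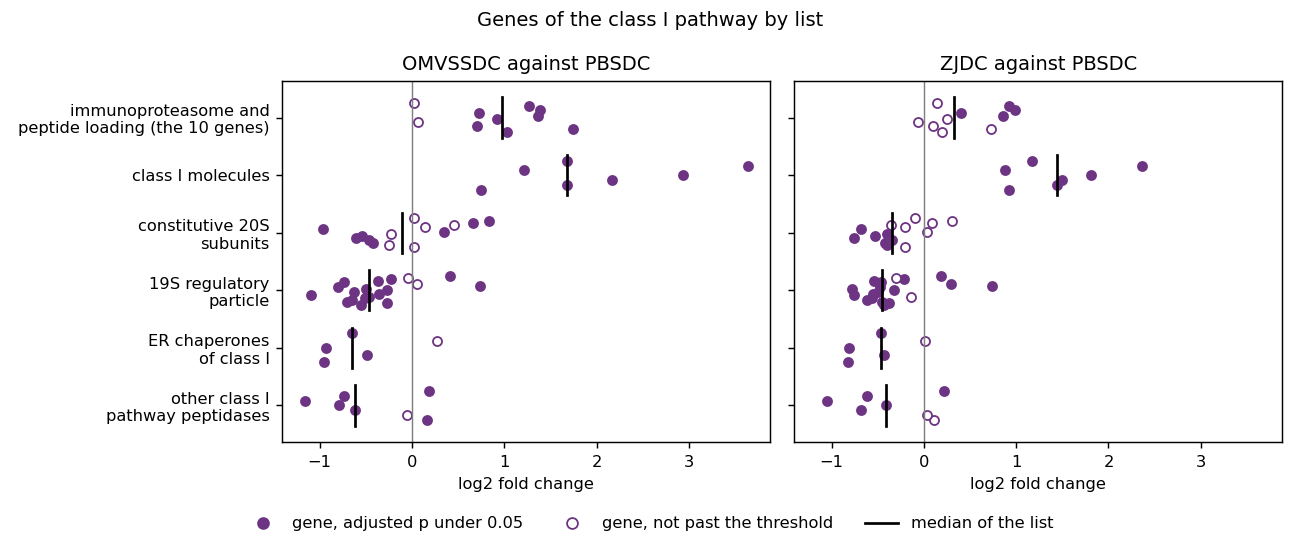
Log2 fold change (horizontal axis) of every tested gene in the 10 immunoproteasome and peptide loading genes and in 5 other lists of the class I pathway, for OMVSSDC and ZJDC against PBSDC. Filled points had an adjusted p under 0.05 and black bars are list medians. The class I molecules lie to the right of 0 in both panels, and 15 and 14 of the 19 subunits of the 19S particle are filled to the left of 0.

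Of 11 tested regulators of these genes, 3 rose and 0 fell in OMVSSDC, and 6 rose and 1, Rfxap, fell in ZJDC. The 3 of 11 higher in OMVSSDC stand beside 33.4% of all tested genes, and the 6 of 11 higher in ZJDC beside 27.6%. Nlrc5, the transactivator of class I promoters, had 119, 128 and 105 CPM in OMVSSDC, 85.4, 85.8 and 89.2 CPM in ZJDC, and 30.0, 29.9 and 30.3 CPM in PBSDC. Its groups did not overlap, and it rose by 1.97 in OMVSSDC (SE 0.0810, edgeR adjusted p = 5.35e-08) and 1.53 in ZJDC (SE 0.0805, adjusted p = 3.57e-07). It was also higher in OMVSSDC than in ZJDC, by 0.44 (SE 0.0764, adjusted p = 0.0331), or 0.26 with OMVSSDC replicate 3 alone, which did not pass (adjusted p = 0.0538). With only the 2 groups fitted the same 0.44 did not pass either (edgeR adjusted p = 0.168), in a fit that called 0 of 11430 tested genes. Irf1 rose by 1.11 in OMVSSDC, or 0.64 with replicate 3 alone, and by 0.72 in ZJDC, and Rfx5, which binds class I promoters together with Nlrc5, rose by 0.76 in OMVSSDC and 0.81 in ZJDC. Stat2 was 0.25 higher in OMVSSDC without passing (adjusted p = 0.0575) and rose by 0.31 in ZJDC (adjusted p = 0.0282). With OMVSSDC replicate 3 alone the median of the 11 regulators was 0.27 against PBSDC. In OMVSSDC the count of regulators was 5 higher and 1 lower without replicate 3, where 4584 of 11761 tested genes were higher. With scaling by library size it was 7 higher and 0 lower, where 4672 of 11568 were higher. In ZJDC it was 3 higher and 1 lower without PBSDC replicate 1, and the same with a trend over length and GC content removed.

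Of 8 tested interferon receptors, kinases and regulators of their signal, 4 rose and 1 fell in OMVSSDC and 5 rose and 1 fell in ZJDC. The 5 of 8 called in OMVSSDC stand beside 63.6% of all tested genes. Jak2, a kinase of the interferon gamma receptor, rose by 1.496 and 1.567, and Ifnar2, a chain of the type I interferon receptor, by 0.40 and 0.25. Of the interferon ligands, Ifng and Ifnb1 were looked at, and both were at or near 0. Ifng had 0 counts in all 9 libraries, which allows up to 0.163 to 0.235 CPM depending on the library. Ifnb1 had 1, 0 and 0 counts in OMVSSDC, 0 in each ZJDC library and 1, 2 and 0 in PBSDC. Interferon protein was not measured.

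For each of the 10 genes, the gene whose log2 CPM followed it most closely was sought among 9606 genes with a mean of at least 5 CPM. The likeness is Pearson's r over the 9 libraries, which fall into separate groups, so that it describes how the groups and OMVSSDC replicate 3 line up and carries no p. H2-T23 was nearest to Tap1 (r = 0.999), Oas3 to Tapbp (0.998), Nmnat3 to Tapbpl (0.996) and Serinc2 to Tap2 (0.995). The ribosomal protein genes Rps23 and Rplp1 were nearest to Psmb9 (0.997) and Psmb10 (0.997), Parp10 to Psmb8 (0.994) and Flcn to Psme2 (0.993). Rplp1 had 739, 691 and 223 CPM in OMVSSDC, 209, 213 and 255 CPM in ZJDC and 205, 184 and 205 CPM in PBSDC, the same split of OMVSSDC libraries as for Psmb10. For the genes that moved least, Tab3 was nearest to Erap1 (0.979) and Lgals1 to Psme1 (0.965).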

How the data were processed

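Total RNA of DC2.4 cells was sequenced in 9 libraries, 3 per group, with groups and replicate numbers taken from the titles. Per the submitters' processing notes, the tools were fastp 0.22.0, HISAT2 2.1.0 and HTSeq 0.9.1. The sources used here do not give the genome build, annotation or strand setting. The deposited table holds raw read counts per gene. It also holds FPKM, which the authors computed and which were not used, and gene lengths. Unused count columns numbered 0.

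The table was analysed in R 4.3.3 with edgeR 4.0.16: filterByExpr (minimum count 10, minimum total 15), TMM, and a robust quasi-likelihood fit to all 9 libraries with group as the sole factor (6 residual degrees of freedom). Tests were two-sided, with Benjamini-Hochberg adjustment over 11568 genes and a threshold of 0.05. Standard errors (SE) came from the log2 fold change and F. CPM are TMM-scaled. Ratios of subunits used exact permutation tests. Correlations used log2 CPM with a prior count of 2. Promoter windows are RefSeq's for GRCm38.p6; the table's coordinates are of another build and were not mixed with them. The pipeline was tested on simulated data.

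The 10 genes and all lists were chosen with earlier results of these data known. Beyond the 10, the text names a fixed panel and up to 2 further genes per list with the smallest adjusted p in OMVSSDC against PBSDC. It also names the most alike gene of each of the 10, genes that overlap one of the 10, Psme2b and cell type markers. H2-T23, H2-Q7, Ifng, Ifnb1 and Rfxap were named as list members after their values were seen. 1 gene of the panel and of the list of regulators is not reported here. Alternatives were RLE scaling, scaling by library size, other filters (none, or stricter), DESeq2 1.42.0, voom of limma 3.58.1, the replicate number as a block, only 2 groups, each library left out, and the 7 libraries. Removal of a trend over length and GC content, and the sum of Psme2 and Psme2b, were chosen after seeing the data.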

Additional observations from a re-analysis of the deposited data

How the results depend on the processing

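Of 573 values of the 10 genes under other settings, 523 kept their direction and side of the threshold. Library size alone moved the median of all genes in OMVSSDC against PBSDC to 0.18, from 0.05 under TMM, and gave 115 higher and 91 lower genes in OMVSSDC against ZJDC, where TMM gave 99 and 127. In ZJDC against PBSDC, 7 of the 10 genes and 11 of the 14 20S subunits passed with only the 2 groups. That fit called 8009 of 11398 tested genes. Over fits that leave out a library the counts were 4 to 7 of the 10 and 6 to 11 of the 14. In OMVSSDC against ZJDC the genes called were 1644 with DESeq2, 355 within the 7 libraries, 593 with a trend over length and GC content removed and 0 with only the 2 groups, and 0 to 6539 leaving out a library. Of the 10 genes, 2 passed with no filter, 8 with DESeq2, 3 with that trend removed and 0 to 10 leaving out a library, and of the 20S subunits 3, with DESeq2, 1, with the trend removed, and 0 to 12. The cause was not tested.

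The replicate numbers showed no clear pairing of the samples. Deviations from the group mean were correlated between libraries. For equal numbers r was -0.12, 0.07 and -0.07 (OMVSSDC and PBSDC), -0.27, -0.12 and -0.39 (OMVSSDC and ZJDC). It was 0.09, -0.02 and 0.04 for ZJDC and PBSDC. For unequal numbers it ran from -0.13 to 0.15, -0.20 to 0.33 and -0.08 to 0.03 in that order. With 3 libraries per group these values cannot exclude a pairing. With the replicate block, the counts for the 10 genes were 8, 4 and 0, as without it, 0 genes were called in OMVSSDC against ZJDC, and 0 of 7 other peptidases were higher in either group than in PBSDC.

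The following values on the log2 scale turned their sign. In OMVSSDC against PBSDC, Psme1 was -0.061 within the 7 libraries and -0.18 with the trend removed. Erap1 was -0.0079 with RLE and -0.0080 with DESeq2, and -0.069 to 0.072 leaving out a library. Psmb7 was -0.013 with both tools and -0.27 within the 7 libraries, and -0.054 to 0.14 leaving out a library. Pomp was 0.036 with library size alone and -0.17 to 0.0063 leaving out a library, and Ganab -0.060 within the 7 libraries. In ZJDC against PBSDC, Psmb5 was -0.016 with the trend removed and -0.039 to 0.16 leaving out a library, and Lnpep -0.052 with the trend removed. Ganab there was -0.00060 with RLE, -0.00062 with DESeq2, -0.061 with the trend removed and -0.032 to 0.058 leaving out a library. In OMVSSDC against ZJDC within the 7 libraries, Psmb9 was -0.0087, Psmb10 -0.020, Erap1 0.042, Psmb5 -0.019, Psmb6 -0.021 and Psmb7 -0.18. With the trend removed Psme1 was -0.042 and Erap1 0.022.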
